A study of Mus musculus with 65 samples.

Results

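The retinas compared here came from 8 of the 65 mice of the series, chosen by the group given in their labels. Of these, 4 were microglia-repopulated retinas (REPOP21) and 4 were microglia-depleted retinas (DEP21). All were adult wild type C57BL/6J mice, and each library was made from the homogenate of whole retina. DEP21 mice had eaten a diet with PLX5622, an inhibitor of the receptor CSF1R, for 21 days and were still on the drug at harvest. REPOP21 mice had first eaten the drug diet, for 14 days in the study's repopulation scheme, and then the AIN-76A control diet without drug for 21 days. Both groups had therefore been exposed to PLX5622, but they differed in microglia, in the presence of the drug at harvest and in the time since the first dose, and these 3 differences cannot be told apart in this design. The label for the diet before repopulation gives no number of days for these mice. The control diet mice (CD, n = 5) had no drug and serve as a description of the starting level. Of these 5 control libraries 2 carried the title suffix re, described below, against 1 of 4 in each of the other groups, and 1 of those 2 is labelled as a separate 2M control, so shares of the CD mean also carry this difference in suffix. The comparison asks which retinal transcripts differ between a retina emptied of microglia and a retina in which microglia have returned.

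Microglia are the resident macrophages of the retina. They lie in the plexiform layers, where they survey synapses, take up debris and release complement C1q, and they need signalling through CSF1R by its ligands CSF1 and IL-34 to survive. Inhibition of CSF1R kills them, and when the inhibitor is withdrawn new microglia spread through the retina. The study reports that these came from outside the retina, from residual microglia of the optic nerve and from macrophages of the ciliary body and iris. Because microglia are a small part of retinal cells, their transcripts are rare in whole retina, whereas rod transcripts are abundant. In such bulk RNA, fewer microglia and less microglial RNA per cell cannot be told apart.

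Library totals were 7572657 to 8760443 counts in DEP21 and 5106429 to 8137613 in REPOP21, and the smallest was REPOP21 replicate 1. Titles carry 1 of 2 suffixes whose meaning the labels do not give, and replicate 1 of each group had the suffix re while the other 3 mice had RE. A gene at 0 counts in a DEP21 library could still be present at up to 0.342 to 0.396 CPM (counts scaled to a common library total), the level of 3 counts, which covers counting error only. In a principal component analysis of 12346 genes the first component took 66.0% of the variance, with the re libraries at -27.5 and -30.2. DEP21 replicate 3, labelled RE, lay at -16.9, away from the other 5 RE libraries at 7.05 to 25.2. For genes near a threshold the FDR without this mouse or without the shallow REPOP21 replicate 1 is given below.

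A small set of microglial transcripts, with 0 to 7 counts each over all of DEP21 except for Mpeg1 with 48, was higher in REPOP21. Of 24258 tested genes, 7 were differentially expressed genes (DEGs), all higher in REPOP21, which is 0.0289% of the genes tested. They were Ctss, C1qc, C1qb, C1qa, Cx3cr1, Mpeg1 and Laptm5, and all 7 are on the microglia identity list. Ctss, C1qb, C1qa and Cx3cr1 had passed the filter on low counts through REPOP21 alone. No gene was a DEG in the lower direction. A DEG had a Benjamini-Hochberg false discovery rate (FDR) under 0.01 in edgeR's quasi-likelihood test with the suffix as a covariate, and an absolute log2 fold change above 1. At an FDR under 0.05 with no fold threshold, Pld4 and Selplg were added, for 9 genes higher (0.0371% of those tested) and 0 lower, while DESeq2 gave 13 higher and 3 lower at that threshold. Pld4, too, had passed the filter through REPOP21 alone. At an unadjusted p under 0.05, 1320 genes (5.44%) were higher and 1219 (5.03%) lower, so outside the called genes the directions were nearly balanced. The median log2 fold change of all tested genes was 0.0073. With single libraries left out the number of DEGs ranged from 0 to 9. It was 0 without DEP21 replicate 2 and without REPOP21 replicate 2, 3 or 4, it was 3 without DEP21 replicate 1 and 5 without DEP21 replicate 4, it was 4 (the C1q subunits and Ctss) without the shallow REPOP21 replicate 1, when Cx3cr1, Mpeg1 and Laptm5 had FDR of 0.0170, 0.0386 and 0.0436, and it was 9 without DEP21 replicate 3, when Fbln1 and Lyz2 joined the 7.

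**Figure D1:**
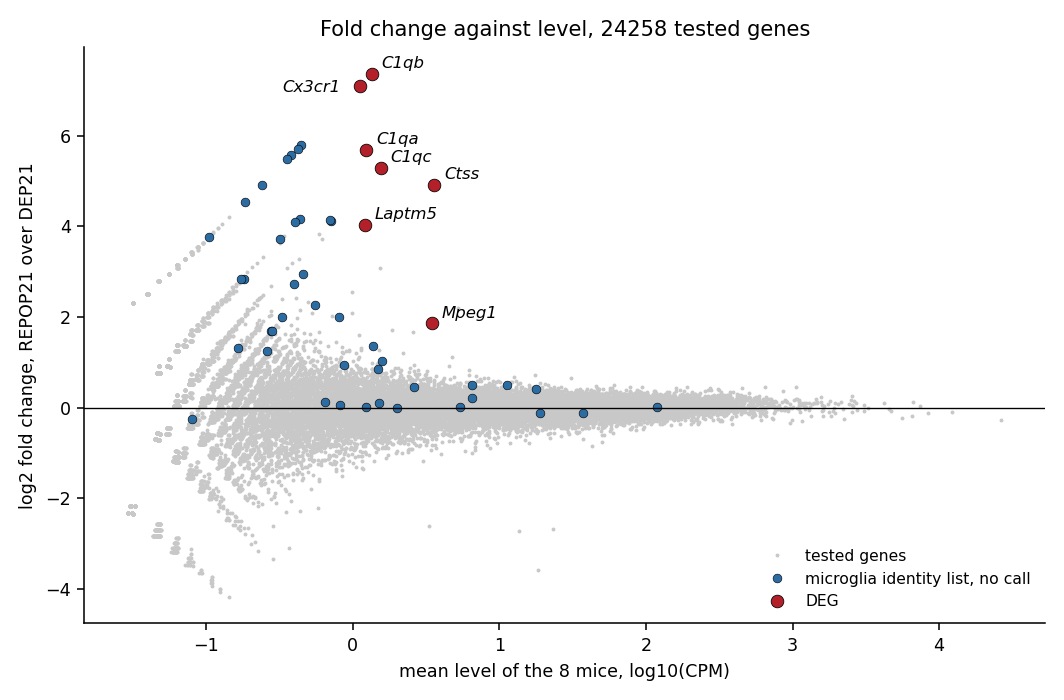
Each dot is 1 of 24258 tested genes, plotted by its mean level over the 8 mice (log10 of CPM, horizontal axis) and its fitted log2 fold change of REPOP21 over DEP21 (vertical axis). The 7 DEGs (red) lie above the zero line between 1.86 and 7.38, most other microglia identity genes (blue) lie at lower levels, and abundant genes lie close to zero; folds of genes at 0 counts in DEP21 depend on the prior count.

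Promoters are shown for the DEGs because these genes changed together and PU.1 (gene Spi1), the factor that specifies macrophages, binds purine-rich ETS sites. RefSeq (GRCm38.p6) gave promoters for 6 of the 7 DEGs. The motif searched was GAGGAA on either strand, read as TTCCTC on the other strand, in the 250 bases before the RefSeq start of the gene. It was held by 4 of the 6 DEG promoters (66.7%), namely Ctss, C1qb, C1qc and Laptm5, by 22 of the 48 promoters of the microglia identity list (45.8%) and by 23.3% of all 32851 promoters of the same length. The E-box CACGTG, searched in the same way, was in 0 of the 6 and in 6.02% of all. A match of these letters is a description and not a binding site. Shown are Ctss at chr3:95526536-95526785 on the plus strand and C1qb at chr4:136886201-136886450 on the minus strand, which hold the motif in capitals, and Mpeg1 at chr19:12460520-12460769 on the plus strand, which does not. None of these 3 windows overlaps an annotated exon. The windows of C1qc, Laptm5 and Cx3cr1, not shown, overlap annotated exons over 151, 191 and 250 of their 250 bases. The Laptm5 match, 38 bases before the RefSeq start, lies inside the gene as GENCODE annotates it.
Ctss: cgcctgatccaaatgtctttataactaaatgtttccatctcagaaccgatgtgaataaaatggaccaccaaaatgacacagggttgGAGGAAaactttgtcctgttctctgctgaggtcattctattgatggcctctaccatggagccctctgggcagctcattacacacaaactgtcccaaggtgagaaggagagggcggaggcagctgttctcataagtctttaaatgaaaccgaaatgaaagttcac
C1qb: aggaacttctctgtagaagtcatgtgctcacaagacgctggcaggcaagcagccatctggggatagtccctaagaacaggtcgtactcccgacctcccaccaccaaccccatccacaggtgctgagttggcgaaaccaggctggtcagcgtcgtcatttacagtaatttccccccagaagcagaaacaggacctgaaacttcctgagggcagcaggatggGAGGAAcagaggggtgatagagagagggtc
Mpeg1: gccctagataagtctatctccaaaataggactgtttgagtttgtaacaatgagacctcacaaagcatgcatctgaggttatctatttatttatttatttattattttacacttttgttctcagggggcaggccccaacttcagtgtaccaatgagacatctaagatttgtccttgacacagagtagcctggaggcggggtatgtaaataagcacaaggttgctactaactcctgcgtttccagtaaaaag
In the Ctss window the motif starts 164 bases before the RefSeq start of the gene, and in the C1qb window 30 bases before it.

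The C1q subunits had 0 to 2 counts each over all of DEP21 and stood at 67.3% to 95.6% of control retina in REPOP21. C1qa, C1qb and C1qc encode the 3 chains of C1q, the recognition molecule of the classical complement pathway, and they lie side by side on chromosome 4 (GRCm38), at positions 136895917-136898803, 136880129-136886187 and 136889804-136893065. C1qb had 0 counts in all 4 DEP21 mice, and in REPOP21 replicates 1 to 4 it stood at 2.68, 2.40, 3.21 and 2.51 CPM. Its level was at least 7.3-fold higher in REPOP21 when each DEP21 library is set to 3 counts (FDR = 0.000243 in edgeR's quasi-likelihood test). C1qa had a single count in the DEP21 group, in replicate 3, and 3.06, 1.51, 2.95 and 2.26 CPM in REPOP21. The ratio of the pooled counts was 77.5, with a counting interval of 13.5 to 3105 (FDR = 0.000328). C1qc had 2 counts in DEP21, 1 each in replicates 1 and 3, and 4.40, 2.65, 2.95 and 2.13 CPM in REPOP21, a ratio of 47.2 (12.7 to 396, FDR = 6.24e-05). For each subunit every REPOP21 mouse lay above every DEP21 mouse, beside 1.49% of all tested genes. C1qa and C1qb had passed the filter on low counts through REPOP21 alone, so for them this separation does not stand as support. The REPOP21 means were 87.9% (C1qb), 67.3% (C1qa) and 95.6% (C1qc) of the CD means, and for C1qa and C1qc the lowest REPOP21 mouse stood at 1.51 and 2.13 CPM beside a CD minimum of 2.71 and 2.06 CPM.

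Of 7 microglia identity genes with a role in the lysosome, in endosomes or in pore formation, a grouping made after their values were seen, 3 were DEGs. The share over all tested genes was 0.0289%. Because of the grouping, and because 2 of the 7 (Ctss and Pld4) had passed the filter through REPOP21 alone, this count does not stand as support. On the separate lysosome and phagocytosis list, by contrast, Ctss was the only DEG among 32 tested genes, 15 had a fold change above 0 and the median log2 fold change was -0.02. Ctss, the lysosomal cysteine protease cathepsin S that trims the invariant chain of MHC class II, had 0 CPM in DEP21 replicates 1, 2 and 4 and 0.799 CPM (7 counts) in replicate 3. In REPOP21 it stood at 5.17, 7.06, 8.21 and 7.53 CPM, and its mean was 100.1% of the CD mean. Its log2 fold change was 4.92 ± 0.45 (SE, FDR = 6.24e-05). DEP21 replicate 3 was the only depleted mouse with a read of it, and without that mouse the fitted log2 fold change was 8.67 (FDR = 5.86e-08), a value that then depends on the prior count and is no bound. Without REPOP21 replicate 1 it was 4.66 (FDR = 0.00174). Mpeg1, which encodes the pore-forming perforin-2 of macrophages, was the DEG with the most counts left in depleted retina: 1.39, 0.937, 1.26 and 2.28 CPM in DEP21 against 5.94, 5.55, 4.87 and 5.39 CPM in REPOP21. The groups did not overlap, and the log2 fold change was 1.86 ± 0.24 (SE, FDR = 0.00218). Laptm5, a lysosomal membrane protein of blood-lineage cells, had 0.127, 0.402, 0 and 0 CPM in DEP21 and 1.53, 1.77, 2.18 and 3.64 CPM in REPOP21, a log2 fold change of 4.04 ± 0.59 (SE, FDR = 0.00821). Without REPOP21 replicate 1 neither Mpeg1 (FDR = 0.0386) nor Laptm5 (FDR = 0.0436) was a DEG. Mpeg1 reached 130% of its CD mean and Laptm5 49.9%. Pld4, an endolysosomal exonuclease, had 2 counts in DEP21, both in replicate 2, and 1.34, 1.01, 1.67 and 1.38 CPM in REPOP21 (FDR = 0.0430, and 0.127 without REPOP21 replicate 1). With reads in a single depleted mouse, it had passed the filter through REPOP21 alone.

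Among the 26 surface receptors and their partners on the list, Cx3cr1 was the only DEG, beside 0.0289% of all tested genes. Of the 26, 25 were tested, 11 through REPOP21 alone. Cx3cr1 is the receptor by which microglia read the neuronal ligand fractalkine, and it had 0 counts in all 4 DEP21 mice. In REPOP21 it stood at 2.49, 1.64, 1.67 and 3.14 CPM, at least 5.99-fold higher by the floor of 3 counts per library (FDR = 0.00174) and 56.9% of the CD mean. Without REPOP21 replicate 1 its FDR was 0.0170, above the limit for a DEG. Selplg, the P-selectin ligand, had 1 count each in DEP21 replicates 1 and 4 and 0.958, 1.39, 0.770 and 2.26 CPM in REPOP21 (FDR = 0.0468, and 0.0873 without REPOP21 replicate 1). Tmem119, a membrane protein used to tell microglia from other macrophages, had 0 counts in DEP21 and 1.15, 0.505, 1.03 and 0.878 CPM in REPOP21, and it missed both thresholds (FDR = 0.0692, and 0.0450 without DEP21 replicate 3). Its counts were 25 in all of REPOP21, so this gene sat near the limit of the sequencing depth. Trem2, a lipid receptor of microglia, had 3 counts in DEP21 and 0.383, 0.631, 0.385 and 1.38 CPM in REPOP21 (ratio 7.86, counting interval 2.35 to 41.2, FDR = 0.302). Itgam, the integrin CD11b, had 1 and 9 counts in all (FDR = 0.405). P2ry12, the purine receptor of surveying microglia, stood at 0.506, 0, 0.114 and 0.120 CPM in DEP21 and 0.383, 1.01, 1.54 and 0.753 CPM in REPOP21. Its groups overlapped through both re mice (FDR = 0.326). The drug's own target, Csf1r, stood at 8.30 to 10.2 CPM in DEP21, well above 0, and 10.5 to 16.3 CPM in REPOP21, without overlap, and it did not pass the test (log2 fold change 0.50 ± 0.15 SE, FDR = 0.333).

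**Figure D2:**
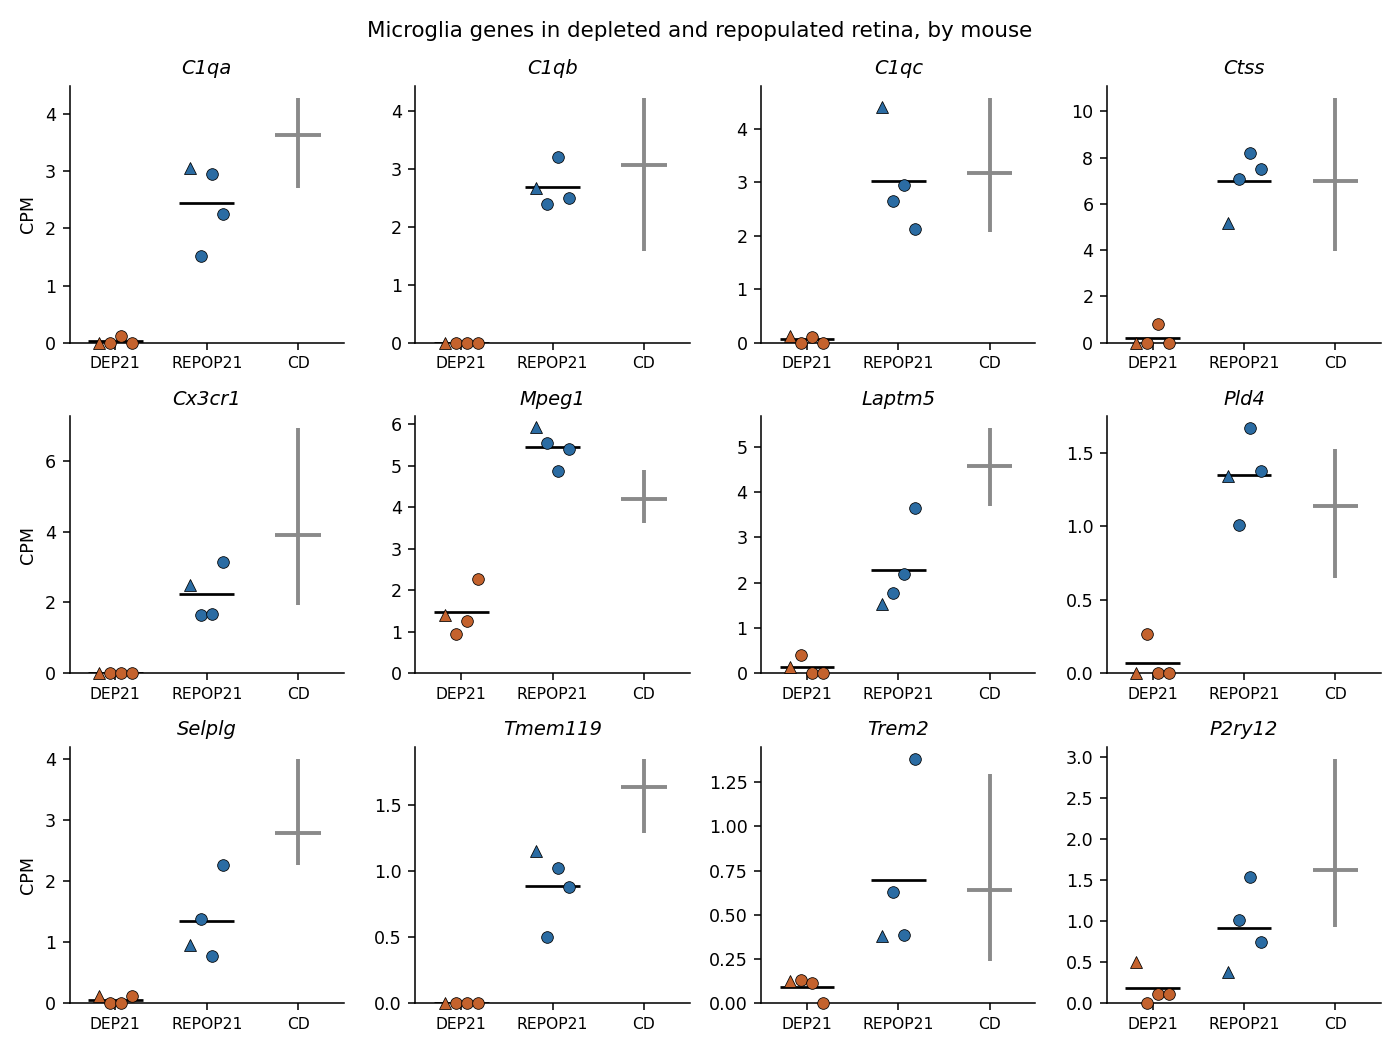
Levels in CPM (vertical axes, starting at 0) of 12 microglia genes in each DEP21 mouse (orange) and REPOP21 mouse (blue). Triangles are the re libraries, circles the RE libraries, black bars group means, and grey bars the mean and range of 5 CD mice; the groups overlap only for P2ry12, and Mpeg1 alone among the DEGs keeps over 0.9 CPM in every depleted mouse.

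Transcription factors of microglia gave no call among 6 tested. Sall1, a factor of microglial identity, had 0.506, 0.535, 0.914 and 0.359 CPM in DEP21 and 1.92, 0.378, 0.770 and 1.63 CPM in REPOP21. Its groups overlapped (FDR = 0.510). Spi1, which encodes PU.1, had 0 counts in DEP21 and 14 counts in REPOP21, 0.383, 0.378, 0.770 and 0.376 CPM by mouse (FDR = 0.246). Irf8 and Runx1 stood at similar means in both groups, 1.23 against 1.25 and 0.602 against 0.682 CPM, and each had reads in all 4 depleted mice.

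Over the whole microglia identity list, 49 of 50 genes were tested and 27 had every REPOP21 mouse above every DEP21 mouse, against 1.49% of all tested genes, and 0 had every REPOP21 mouse below, against 1.09%. At an unadjusted p under 0.05, 34 were higher and 0 lower, beside 5.44% and 5.03% of all tested genes. Of the 49, 17 had passed the filter on low counts through REPOP21 alone and 9 had 0 counts in all of DEP21, so a difference was built into their presence and these counts do not stand as support. The median log2 fold change was 2.01, or 1.23 with the 9 genes at their lower bound. The summed level of the list was 229 to 240 CPM in DEP21, 270 to 300 CPM in REPOP21 and 297 to 336 CPM in CD. Members that kept their level in depleted retina carried the sum there. Susd3 (119 CPM in DEP21 and 120 CPM in REPOP21) and Lpcat2 (38.4 and 35.5 CPM) made up most of it, and they did not differ beyond the spread of the mice (FDR = 0.982 and 0.662). Lair1, Olfml3, Entpd1 and Rnase4 were likewise kept in depleted retina, at 6.03, 5.34, 2.01 and 1.45 CPM.

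Recovery relative to control retina was uneven across genes. For the 41 members with a CD mean of at least 0.5 CPM, the REPOP21 mean was 88.1% of CD in the median, from 48.1% for Selplg to 132% for Rgs10, and the DEP21 mean was 26.2% of CD in the median. In REPOP21, 11 of the 41 stood at or above the CD mean, against 2 in DEP21. Under 60% of CD in REPOP21 were Selplg, Laptm5, Fcer1g, Fcgr3, Cx3cr1 and P2ry12 (57.0%), Tmem119 (54.4%), Gpr34 (55.9%) and Itgam (49.7%). The 11 at or above the CD mean were Ctss, Trem2 (108%), Runx1 (110%), Unc93b1 (112%), Tyrobp (114%), Hpgds (118%), Pld4 (119%), Cd68 (125%), Mpeg1, Golm1 and Rgs10. These shares are descriptions over group means, and no test of REPOP21 against CD was made.

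**Figure D3:**
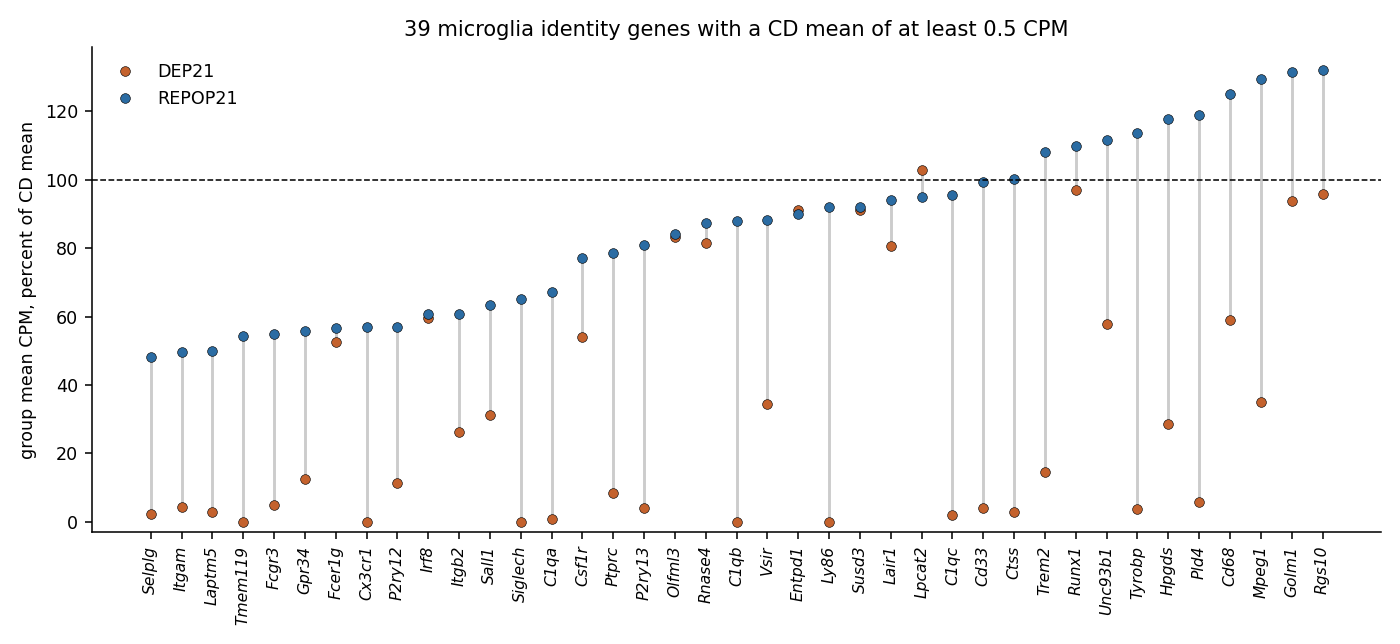
Group mean CPM as percent of the CD mean (vertical axis) for 39 of the 41 microglia identity genes with a CD mean of at least 0.5 CPM, ordered by REPOP21 (blue) with DEP21 in orange. REPOP21 runs from 48.1% to 132%, and Susd3, Olfml3 and Lpcat2 show little distance between the groups.

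Genes of MHC class II presentation had higher means in REPOP21, and for several these lay above control retina, but only Ctss passed the test. MHC class II molecules show peptides to CD4 T cells and are usually low on resting microglia. Of 10 genes listed 8 were tested, and Ctss, shared with the microglia list, was the only call. The median log2 fold change of the 8 was 1.48, but Ctss and H2-Aa had passed the filter on low counts through REPOP21 alone, so the median does not stand as support. Cd74, the invariant chain, had 0.632, 0.134, 0.228 and 0.120 CPM in DEP21 and 3.26, 0.883, 0.898 and 1.76 CPM in REPOP21, without overlap (log2 fold change 2.55 ± 0.45 SE, FDR = 0.0573, and 0.0450 without DEP21 replicate 3). In CD it was 0.393 ± 0.278 CPM (SD, n = 5), so the REPOP21 mean was 432% of control. H2-Aa, a class II alpha chain, had 1 count in DEP21 and 0.575, 0.505, 0.385 and 0.878 CPM in REPOP21 (FDR = 0.221), and H2-Eb1, a beta chain, had 0.759, 0.134, 0.114 and 0.120 CPM against 0.958, 0.757, 0.257 and 1.003 CPM (FDR = 0.442). Their REPOP21 means were 331% and 326% of the CD means. H2-Ab1, H2-DMa and Ciita, the class II transactivator, stood at 82.4%, 96.1% and 104% of CD in REPOP21. Their means in DEP21 and REPOP21 were 0.641 and 0.985 CPM, 1.305 and 1.525 CPM, and 1.147 and 1.236 CPM. None passed the test (FDR = 0.605, 0.863 and 0.919). The summed list stood at 2.14 to 5.95 CPM in DEP21, 13.1 to 14.7 CPM in REPOP21 and 9.77 to 15.0 CPM in CD. Ctss alone gave 6.99 CPM of the mean sum of 13.97 CPM in REPOP21. It gave 6.99 of 12.04 CPM in CD and 0.200 of 3.94 CPM in DEP21. The distance between the sums is therefore largely that of Ctss.

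Genes of border macrophages and monocytes gave no call. Of the 25 on this list 15 were tested, 3 of them, with Cybb among these, through REPOP21 alone. Only Lyz2 and Cybb, singled out after their values were seen, had every REPOP21 mouse above every DEP21 mouse, beside 1.49% of all tested genes. For Cybb this separation does not stand as support, because of the filter. Of the 15 tested, 11 had a fold change above 0. The median log2 fold change was 0.45, or 0.17 with the gene at 0 counts in all of DEP21 at its lower bound. The rest had a lower mean in REPOP21, namely Folr2 (log2 fold change -0.34), F13a1 (-0.36), Cd36 (-0.16) and Fn1 (-0.06), none past the test. Lyz2, the macrophage lysozyme, had 0.127, 0.268, 0.799 and 0 CPM in DEP21 and 3.26, 4.29, 2.57 and 1.003 CPM in REPOP21 (log2 fold change 3.09 ± 0.58 SE, FDR = 0.0779), and its FDR was 0.00590 without DEP21 replicate 3. Cybb, the catalytic subunit of the phagocyte NADPH oxidase, had 2 counts in DEP21, both in replicate 4, and 1.15, 1.64, 0.898 and 0.753 CPM in REPOP21 (FDR = 0.0838). In CD the means were 0.806 CPM for Lyz2 and 0.0733 CPM for Cybb, so that all 4 REPOP21 mice lay above all 5 CD mice for Cybb (CD maximum 0.238 CPM) and 3 of 4 did for Lyz2 (CD maximum 1.68 CPM). Several markers of border macrophages and monocytes were at or near 0: Mrc1 had 2 counts in DEP21 and 7 in REPOP21, Cd163 1 and 1, Pf4 1 and 0, Ccr2 0 and 1, F13a1 3 and 2, and Ly6c2, Cd209a and Cd209f had none in either group. Ccr1 had 0 and 7 counts (FDR = 0.401) and had passed the filter through REPOP21 alone. Other members were plainly detected in both groups. Stab1, a scavenger receptor, had 144 counts in each, Folr2, a folate receptor, 33 and 23, and Ms4a7 13 and 17. Lyve1 was present at 14.04 to 18.2 CPM in DEP21 and 15.1 to 17.7 CPM in REPOP21. The whole list summed to 119 to 127 CPM in DEP21 and 121 to 136 CPM in REPOP21, ranges that overlap, and Fn1 and Maf made up most of both sums.

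**Figure D4:**
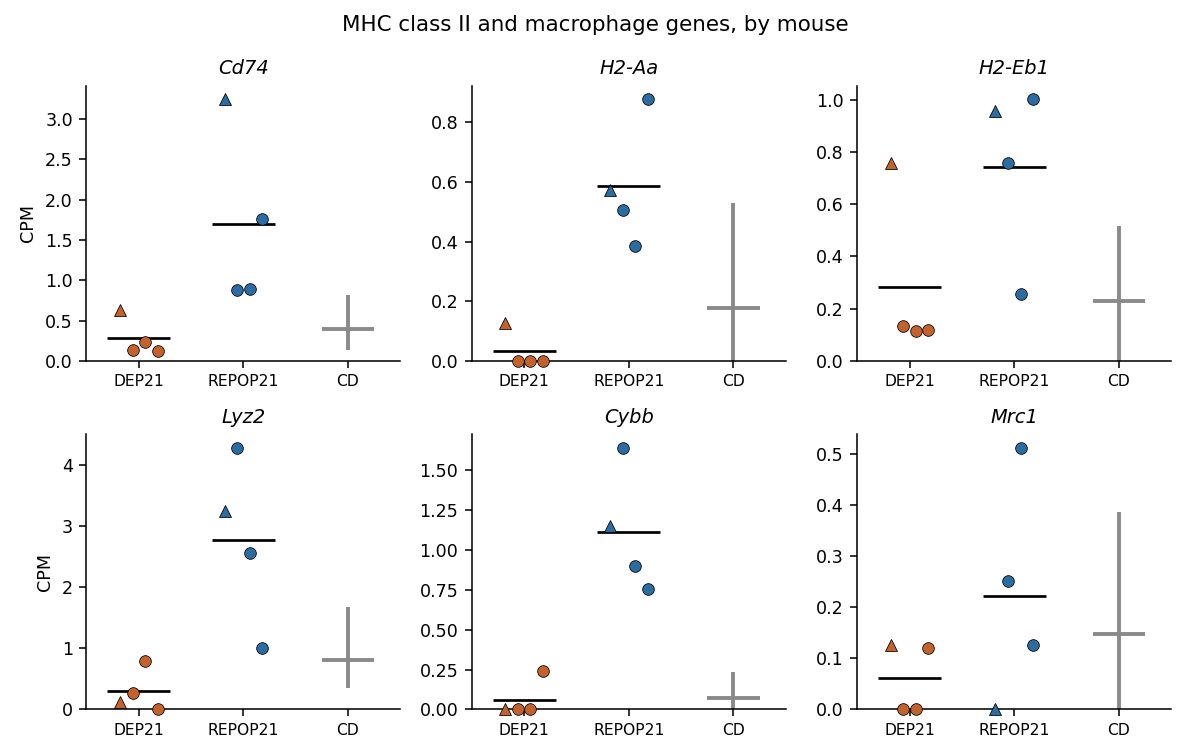
Levels in CPM (vertical axes, starting at 0) of 3 MHC class II genes and 3 macrophage genes in each DEP21 mouse (orange) and REPOP21 mouse (blue), with re libraries as triangles, group means as black bars and the mean and range of 5 CD mice in grey. Cd74, H2-Aa, Lyz2 and Cybb show no overlap between DEP21 and REPOP21, and their REPOP21 means lie above the CD means.

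REPOP21 replicate 1 also carried transcripts that the other 7 libraries had at low levels. Fbln1, an extracellular matrix fibulin, stood at 30.45 CPM in this mouse and at 1.14 to 2.14 CPM in the other 7. Optc, opticin of the ciliary epithelium and vitreous, stood at 12.1 against 0.718 to 1.67 CPM, and the anion exchanger gene Slc26a4 at 4.02 against 0 to 0.257 CPM. The list of ciliary body and iris genes summed to 107 CPM in this mouse and to 67.8 to 92.9 CPM in the other 7. Cd74 was highest in the same mouse, and without it the FDR of Cd74 was 0.159 with a log2 fold change of 2.74. The part of ciliary or other adjoining tissue in the class II values was not tested. Without this mouse Lyz2 had a log2 fold change of 2.78 (FDR = 0.164) and Cybb of 3.52 (FDR = 0.163).

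Complement genes other than C1q, survival ligands and disease-associated genes gave no call. Of the 17 other complement genes tested, 4 were higher at an unadjusted p under 0.05, beside 5.44% of all genes, and the median log2 fold change was 0.14. C3, the central complement component, stood at 2.03 and 2.98 CPM in the group means of DEP21 and REPOP21 (FDR = 0.494) and C4b at 6.76 and 6.61 CPM (FDR = 0.958). Ligands of microglia did not differ beyond the spread between mice: Csf1 had means of 6.91 and 7.73 CPM, Il34 4.07 and 5.02 CPM, Cx3cl1 104 and 93.7 CPM, Tgfb2 113 and 107 CPM and Cd200 24.8 and 28.0 CPM, with FDR between 0.552 and 0.767. On the list of disease-associated microglia, which phagocytic microglia turn on around damage, 27 genes were tested, 6 through REPOP21 alone. The median was 0.08, and 19 had a fold change above 0. At an unadjusted p under 0.05, 5 were higher and 0 lower, beside 5.44% and 5.03% of all tested genes. They were Trem2, Apoe, Cd52 (FDR = 0.442), Tyrobp (FDR = 0.0838) and Cybb. Tyrobp and Cybb had passed the filter through REPOP21 alone, so they do not stand as support. Cst7 had 0 and 3 counts, Itgax 0 and 2 and Clec7a 3 and 11, whereas Spp1, Axl, Lpl and Cd9 were at 12.4, 14.5, 17.1 and 21.4 CPM in depleted retina with FDR between 0.616 and 0.8895.

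Apoe was the most abundant gene near the threshold. It encodes the main lipid carrier of the retina, made by Mueller glia and by microglia, and it stood at 347, 451, 371 and 378 CPM in DEP21 and 481, 492, 560 and 559 CPM in REPOP21, without overlap. The log2 fold change was 0.43 ± 0.08 (SE, FDR = 0.0573), and in CD the range was 385 to 516 CPM. Without DEP21 replicate 3 the FDR was 0.0172, and without REPOP21 replicate 1 it was 0.150. Other glial genes gave no call among 20 tested Mueller glia and astrocyte genes, whose median was 0.09. Gfap, the intermediate filament of reactive glia, stood at 14.04, 15.1, 14.7 and 22.03 CPM in DEP21 and 16.9, 13.9, 15.0 and 25.6 CPM in REPOP21. Its groups overlapped (FDR = 0.856), and all 8 mice lay above all 5 CD mice, whose mean was 11.3 CPM.

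Interferon, inflammatory and cell cycle genes showed no call. Of 32 tested interferon response genes, 4 were higher and 0 lower at an unadjusted p under 0.05, beside 5.44% and 5.03% of all tested genes, and the median log2 fold change was 0.22. The largest of these by level was Oasl2, at 9.82 and 13.4 CPM (FDR = 0.333). The summed list was 178 to 194 CPM in DEP21 and 172 to 210 CPM in REPOP21, so the ranges overlapped. Of 23 tested cytokines and chemokines, 1 (Tlr7, a sensor of RNA placed on this list, with 0 CPM in DEP21 and 0.239 CPM in REPOP21) was higher at that threshold and 0 were lower, beside the same shares. Tlr7 had passed the filter through REPOP21 alone. Of the 23, 8 had a fold change above 0, and the median was -0.07. Ccl3, Cxcl1, Tnf, Cxcl2 and Ccl2 had 7, 4, 3, 3 and 1 counts in DEP21, all in replicate 3, and 0 in REPOP21. They did not pass the filter and were not tested. The other untested members had no reads in either group. None of the 24 tested cell cycle genes reached it, and Ccna2 stood at 49.6 and 46.9 CPM.

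Neuronal and vascular genes gave no call in either direction. The medians of the rod (19 genes), cone (13), bipolar (16), amacrine and horizontal (18), ganglion cell (15) and synapse (29) lists lay between -0.03 and 0.03. The lowest FDR among photoreceptor genes was that of Arr3, the cone arrestin, at 281, 235, 251 and 255 CPM in DEP21 and 244, 182, 186 and 189 CPM in REPOP21 (log2 fold change -0.37 ± 0.07 SE, FDR = 0.0779). The re mouse of REPOP21 fell inside the DEP21 range, and within the RE mice alone the groups did not overlap (FDR = 0.0755). The FDR of Arr3 was 0.0172 without DEP21 replicate 3, 0.0131 by DESeq2 and 0.00457 by the likelihood ratio test, so the absence of a call at 0.05 turned on that mouse and on the test. Of the endothelial and pericyte list, 23 genes were tested with a median of -0.11.

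**Figure D5:**
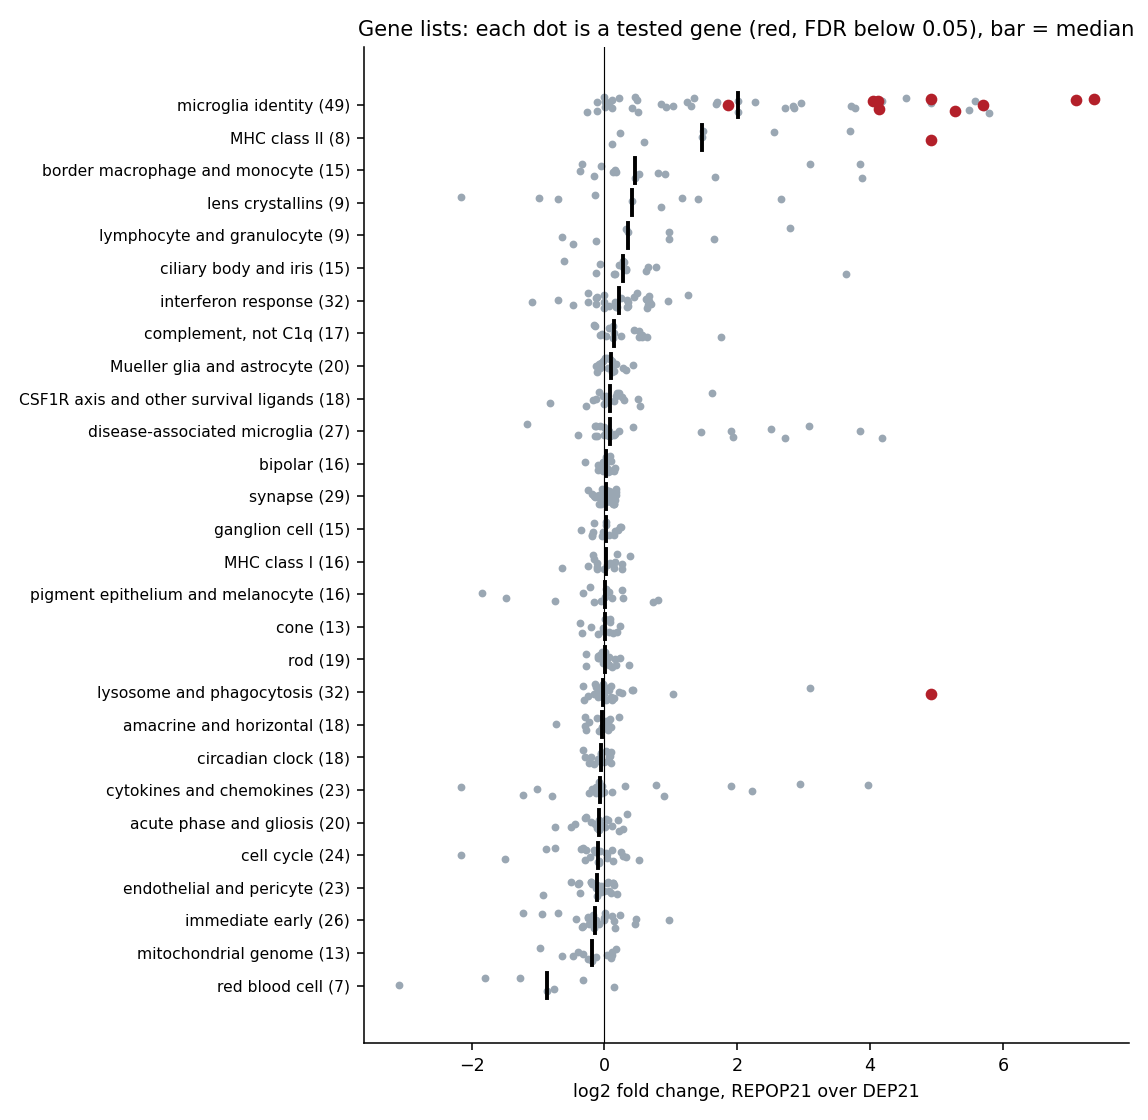
Fitted log2 fold change of REPOP21 over DEP21 (horizontal axis) for the tested genes of 28 lists, with the number of tested genes in brackets. Bars are medians and red dots have an FDR under 0.05; the 9 red genes are on the microglia identity list, and the red dot in the MHC class II and lysosome rows is Ctss.

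Among genes lower in REPOP21 none was called, and the one with the smallest FDR was Gm15706. Gm15706, a gene without a known product, stood at 38.6 to 40.7 CPM in DEP21 and at 34.9, 26.0, 24.0 and 25.2 CPM in REPOP21 (log2 fold change -0.56 ± 0.10 SE, FDR = 0.0581), and its FDR was 0.0172 without DEP21 replicate 3 and 0.0291 without REPOP21 replicate 1. Dok7, an adaptor of receptor tyrosine kinase MuSK, stood at 3.43 to 4.81 CPM and at 1.63 to 2.49 CPM (log2 fold change -1.18 ± 0.22 SE, FDR = 0.0708, and 0.0332 without DEP21 replicate 3). Nr4a3, an immediate early nuclear receptor, stood at 5.95, 9.23, 8.22 and 12.45 CPM in DEP21 and at 2.49, 4.42, 5.77 and 6.15 CPM in REPOP21, with a slight overlap (FDR = 0.0838, and 0.0119 without DEP21 replicate 3). Of 26 tested immediate early genes, which respond to light and handling within minutes, 7 were lower and 0 higher at an unadjusted p under 0.05, beside 5.03% lower over all genes, and none was called. Their summed level was 467 to 522 CPM in DEP21 and 401 to 481 CPM in REPOP21. The red blood cell list had the same direction, with 5 of 7 genes lower at that threshold, 0 called and sums of 6.45 to 24.5 CPM in DEP21 and 1.92 to 12.1 CPM in REPOP21. The part of residual blood in these values was not tested.

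The difference between repopulated and depleted retina was also set beside the same difference at day 14, in 4 REPOP14 and 4 DEP14 mice that share no animal with the 8 mice described here. DEP14 mice had 14 days of drug and REPOP14 mice 14 days of control diet after it. The test of the difference between the 2 contrasts, in 1 edgeR quasi-likelihood fit over 16 mice and 25735 genes, called 0 genes at an FDR under 0.05 (percent called 0, smallest FDR 0.739). At an unadjusted p below 0.05 there were 1631, and 1 gene was called by the likelihood ratio test at that FDR. C1qb stood at 2.76 ± 0.67 CPM in REPOP14 and 2.70 ± 0.36 CPM in REPOP21 (SD, n = 4 each), and at 0 in both depleted groups. Ctss stood at 4.41 ± 0.98 and 6.99 ± 1.30 CPM in the 2 repopulated groups, and its contrast differed by -0.40 ± 0.95 (log2, SE) between the days. Mpeg1 stood at 5.44 ± 0.64 and 5.44 ± 0.44 CPM (contrast difference -0.12 ± 0.45), and Laptm5 at 2.99 ± 1.03 and 2.28 ± 0.94 CPM (0.92 ± 0.95). Cx3cr1 stood at 1.72 ± 0.45 and 2.23 ± 0.72 CPM. Cd74 stood at 0.524 and 1.70 CPM and Cybb at 0.657 and 1.11 CPM, with contrast differences of 1.31 ± 0.88 and 2.16 ± 1.12 that did not pass the test (FDR = 0.756 and 0.739). The intervals of these differences are wide, so equal size at the 2 days is not shown.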

How the data were processed

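Whole retinas were sequenced as single-end reads on a BGISEQ-500. The authors aligned reads with HISAT2 to mm10, and per the labels HTSeq gave the deposited raw counts per gene and StringTie the deposited FPKM values; versions, annotation release and strand setting are not given in the sources used here. The authors' model had a batch term whose batches are not named, so the title suffix stands for it here. Because the strand setting is unknown, overlapping and antisense genes cannot be told apart.

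Counts were tested with edgeR 4.0.16 in R 4.3.3 (TMM, quasi-likelihood, suffix plus group) over the 8 mice, keeping a gene when 0.5 or more of either group's mice had a count of 1 or more. Total counts were 5106429 to 8760443 per library. The standard error (SE) is the fold change over the square root of F. Levels are CPM, scaled by TMM factors from the whole set of 65 mice. A gene at 0 counts throughout DEP21 was given a lower bound from 3 counts per library. With 1 to 3 counts in DEP21, the ratio has an exact counting interval. P-values measure the spread between these mice. FPKM entered only as an alternative, with limma 3.58.1 on log2(FPKM + 1) and log2(FPKM + 0.1), and DESeq2 1.42.0 was another. Gene positions are from GENCODE on GRCm38. The fit was also run on simulated counts with 200 changed genes. Their log2 fold changes were smaller than those fitted for most of the DEGs, so the run is no check of those calls.

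Members and gene lists were chosen with earlier results of these data known. Genes named were those the study names, every DEG, and for each list its DEGs and up to 4 members of highest mean CPM. All others, among them Fbln1, Optc, Slc26a4, Gm15706, Dok7, Lyz2, Cybb and Oasl2, were chosen after their values were seen. The roles within the microglia list were also assigned then. Some listed genes are not reported here by name.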

Additional observations from a re-analysis of the deposited data

Results flagged for a closer look

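In 109 groups of 4 values examined for a single value far from the other 3, 13 were found. Genes in these groups, among them Fbln1, Optc, Slc26a4 and Dok7, were chosen after their values were seen. The count of 13 therefore cannot be set against a chance rate. In DEP21, the summed interferon response level was 177.7 CPM in replicate 1 (others 190.8 to 193.5), the summed ganglion cell level was 1795 CPM in replicate 2 (1582 to 1609), Ctss was 0.7994 CPM in replicate 3 (0 in the others), Gfap was 22.03 CPM in replicate 4 (14.04 to 15.12) and H2-Eb1 was 0.7589 CPM in replicate 1 (0.1142 to 0.1338). In REPOP21, Spi1 was 0.7695 CPM in replicate 3 (0.3763 to 0.383).

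The other 7 were all in REPOP21 replicate 1. Its total was 5106000 counts (others 7944000 to 8138000), and its summed mitochondrial genome level was 30790 CPM (40200 to 40690). Dok7 stood at 2.489 CPM (1.631 to 1.667), Arr3 at 244 CPM (181.5 to 189.3), Fbln1 at 30.45 CPM (1.411 to 2.144), Optc at 12.06 CPM (1.009 to 1.667) and Slc26a4 at 4.021 CPM (0.1254 to 0.2565). This is the only REPOP21 library with the suffix re, so the mouse and the suffix cannot be told apart.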

How the results depend on the processing

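The 7 genes higher and 0 lower in REPOP21 became 25 and 6 with a replicate block, 3 and 0 in RE mice alone, 14 and 0 in a fit of all 65 mice, 28 and 2 by the likelihood ratio test, 4 and 0 with the bias-adjusted deviance (added after seeing the data), 26 and 7 with no filter, 4 and 0 with filterByExpr, 4 and 0 with libraries thinned to the smallest, 1 and 0 by limma on log2(FPKM + 1) and 6 and 1 on log2(FPKM + 0.1). Those on the microglia identity list became 15, 3, 12, 19, 4, 15, 4, 4, 1 and 4 in the same order. The cause was not tested. With single libraries left out, the DEGs ranged from 0 to 9 and those on the list from 0 to 7. The count of genes whose day 21 and day 14 contrasts differed was 0, and 1 by the likelihood ratio test. Same-numbered mice correlated at 0.768, 0.308, -0.256 and 0.606, and the first of these pairs joins the re libraries. Differently numbered mice correlated at -0.701 to 0.605. Among RE mice alone, same-numbered mice correlated at -0.241, 0.165 and 0.241 and differently numbered mice at -0.368 to 0.275. Pairing by number is therefore not shown, and the block fit has 3 residual degrees of freedom. At an FDR under 0.05 the block gave 276 higher and 274 lower, against 9 and 0. Of 283 recomputed values of named genes, 205 kept their direction and side of the threshold, 66 no longer passed it, 12 newly passed it and 0 changed sign. The planned legacy form of the quasi-likelihood test is the installed default and gave no separate value. Depth limits genes such as Tmem119 and Spi1, at 25 and 14 counts over all of REPOP21.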
